A study of Mus musculus with 9 samples.

Results

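The genes described here were 38 antiviral genes that type I interferon switches on, together with the STAT and IRF factors that drive them. They were listed by name as members of this gene class, and the rule itself uses no measured value. Of the 38, 36 were matched in the table of 18272 genes and all 36 passed the low-count limit of 10 counts, which had to be reached in 3 or more libraries, as did 13960 genes overall. Mx1 and Mx2 were not analysed here.

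Gene expression was measured by RNA sequencing in whole tibia from female C57BL/6J mice, young adult at purchase, with 1 library per mouse and 3 mice per group. NGT mice had normal glucose tolerance, had received the citrate vehicle and were given saline. T1D mice had been made diabetic with a single injection of streptozotocin, a toxin of the insulin-producing beta cell, and were given saline. Lira mice had received the same streptozotocin injection and were then given liraglutide, a GLP-1 receptor agonist, so diabetes induction was shared by T1D and Lira and absent from NGT. The labels give 8 weeks of liraglutide for Lira 1 and Lira 2 and 9 weeks for Lira 3. The study's methods describe a single treatment length for the group, so whether Lira 3 was really treated for longer is uncertain. The comparisons address what the diabetic state and the drug change in the tibial transcriptome. Streptozotocin destroys beta cells chemically, which limits it as a model of autoimmune diabetes.

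Type I interferons are secreted proteins that bind the receptor pair IFNAR1 and IFNAR2, activate the kinases JAK1 and TYK2, and assemble a factor that contains STAT2 and IRF9 and binds the interferon-stimulated response element. The genes behind that element encode sensors of viral RNA, enzymes that degrade RNA or block its translation, and proteins that stop virus entry or release. In bone, interferon signalling is known to restrain osteoclast formation, and myeloid cells of the marrow respond to it.

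The members were chosen by name as genes of the class that the response element drives, so their share of matches depends on that choice. The element is shown here as a sequence feature that part of the members carry. Its core, which is GAAA followed by any 2 bases and GAAA again, or TTTC, any 2 bases and TTTC on the other strand, was sought in the window from 250 bases before to 50 after each RefSeq gene start in GRCm38.p6, where overlapping matches were counted separately. A promoter was listed for 27 of the 36 members, and 14 of these held a match, which is 51.9% against 3.99% of 27025 genes with a promoter. The other 13, Irf7 and Ifi44 among them, held none in this window. At least 2 matches stood in 1 promoter for 7 of the 27 members and for 0.266% of all genes. The windows below are written 5′ to 3′ on the strand of the gene, with the matched letters in capitals and 15 bases on each side. They belong to members with several matches and to Rsad2 and Oas3, whose highest mouse differed from that of most members.
Isg15 (chr4:156200860-156200911, minus strand, 78 bases before the start): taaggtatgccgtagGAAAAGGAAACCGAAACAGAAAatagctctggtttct
Oas1a (chr5:120907515-120907560, minus strand, 20 bases before the start): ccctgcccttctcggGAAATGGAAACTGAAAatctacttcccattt
Bst2 (chr8:71537572-71537617, minus strand, 130 bases before the start): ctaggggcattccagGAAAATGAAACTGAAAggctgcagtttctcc
Ifit1 (chr19:34640770-34640828, plus strand, 104 bases before the start): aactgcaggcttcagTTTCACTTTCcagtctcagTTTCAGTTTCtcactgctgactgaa
Ifit3 (chr19:34583358-34583431, plus strand, 156 bases before the start): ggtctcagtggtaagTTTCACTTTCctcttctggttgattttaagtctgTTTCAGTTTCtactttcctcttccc
Ifit3b (chr19:34607754-34607827, plus strand, 188 bases before the start): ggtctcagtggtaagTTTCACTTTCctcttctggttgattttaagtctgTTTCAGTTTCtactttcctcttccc
Rsad2 (chr12:26456548-26456587, minus strand, 120 bases before the start): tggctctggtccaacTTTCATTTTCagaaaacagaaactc
Oas3 (chr5:120777710-120777749, minus strand, 75 bases before the start): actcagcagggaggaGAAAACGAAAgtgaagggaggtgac
The Ifit3 and Ifit3b windows carry the same letters. The other holders were Ddx58, Eif2ak2, Ifih1, Ifitm3, Stat2 and Trim30a. A match is a description of these letters and not a measured binding site.

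The libraries summed to between 13086373 and 16528394 counts. Levels within a gene are given as CPM (counts scaled to 1e+06 per library after TMM normalisation), where the floor of 3 counts lay between 0.163 and 0.237 CPM. Of the 9 tibiae, T1D 1 and Lira 3 stood apart in marker genes of other cells. The 10 macrophage and monocyte markers summed to 1013 CPM in T1D 1 and to between 32.4 and 218 CPM in the other mice, and 9 of the 10 were highest in T1D 1. The 8 neutrophil markers summed to 4792 CPM in Lira 3 and to between 3.87 and 2220 CPM elsewhere, and all 8 were highest in Lira 3. Erythroid markers summed to 29102 CPM in Lira 3, 19029 CPM in T1D 3 and between 390 and 6607 CPM in the rest. The 10 osteoblast and osteocyte markers, which mark the labelled tissue, were all measured. They summed to 3693 CPM in T1D 1, where 7 of them were highest, and to between 111 and 889 CPM in the other mice. Col1a1 alone gave 3208 CPM in T1D 1, and Dmp1, Mepe and Sost were highest in other mice. The 7 osteoclast markers also summed highest in T1D 1, at 352 CPM beside 7.66 to 266 CPM elsewhere, and 5 of them peaked there. All 7 B cell markers were highest in Lira 3, with a sum of 183 CPM beside 0.619 to 59.8 CPM elsewhere. The 10 skeletal muscle markers summed to between 83831 and 229185 CPM, lowest in T1D 1, so the cleaned tibiae carried abundant muscle RNA. In such bulk tissue a change in the number of cells of a type and a change in RNA per cell cannot be told apart.

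Most of the 36 genes were modestly expressed. By the authors' FPKM, which corrects for gene length and so allows genes to be compared, the mean over the 9 mice was at least 10 for 5 members, from 5 to 10 for 7 and under 5 for 24. The median of these means was 3.07 FPKM for the members and 5.46 FPKM for all tested genes. Ifitm3, which blocks virus entry at endosomal membranes, was the most abundant, with a lowest value of 43.3, a median of 61.0 and a highest of 355 FPKM. Ifi27, a mitochondrial interferon-induced protein, followed with a mean of 23.7 FPKM, and Herc6, the mouse ligase that attaches ISG15 to proteins, came last with a mean of 0.932 FPKM. The means of Bst2 and Isg20, at 16.2 and 15.9 FPKM, were next to each other in this order and their ranges overlapped, from 5.46 to 68.4 FPKM for Bst2 and from 1.23 to 63.0 FPKM for Isg20.

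The members were highest in 1 diabetic mouse of each treatment. T1D 1 held the highest CPM for 24 of the 36 members and Lira 3 for the other 12, whereas these mice held the maximum for 20.7% and 19.9% of all tested genes. Both mice occupied the top 2 ranks for 28 of 36 members, against 11.0% of all genes. NGT 2 held the lowest CPM for 27 of 36 members, against 15.0% of all genes. The mean log2(CPM + 1) of the 36 members was 3.19, 2.29 and 2.62 in NGT 1 to 3, 4.26, 2.78 and 2.87 in T1D 1 to 3, and 3.03, 2.81 and 4.01 in Lira 1 to 3. On that scale T1D 2, T1D 3, Lira 1 and Lira 2 lay within the range of the NGT mice, and only T1D 1 and Lira 3 lay above it. Within NGT, mouse 1 was the highest for 33 of 36 members.

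**Figure D1:**
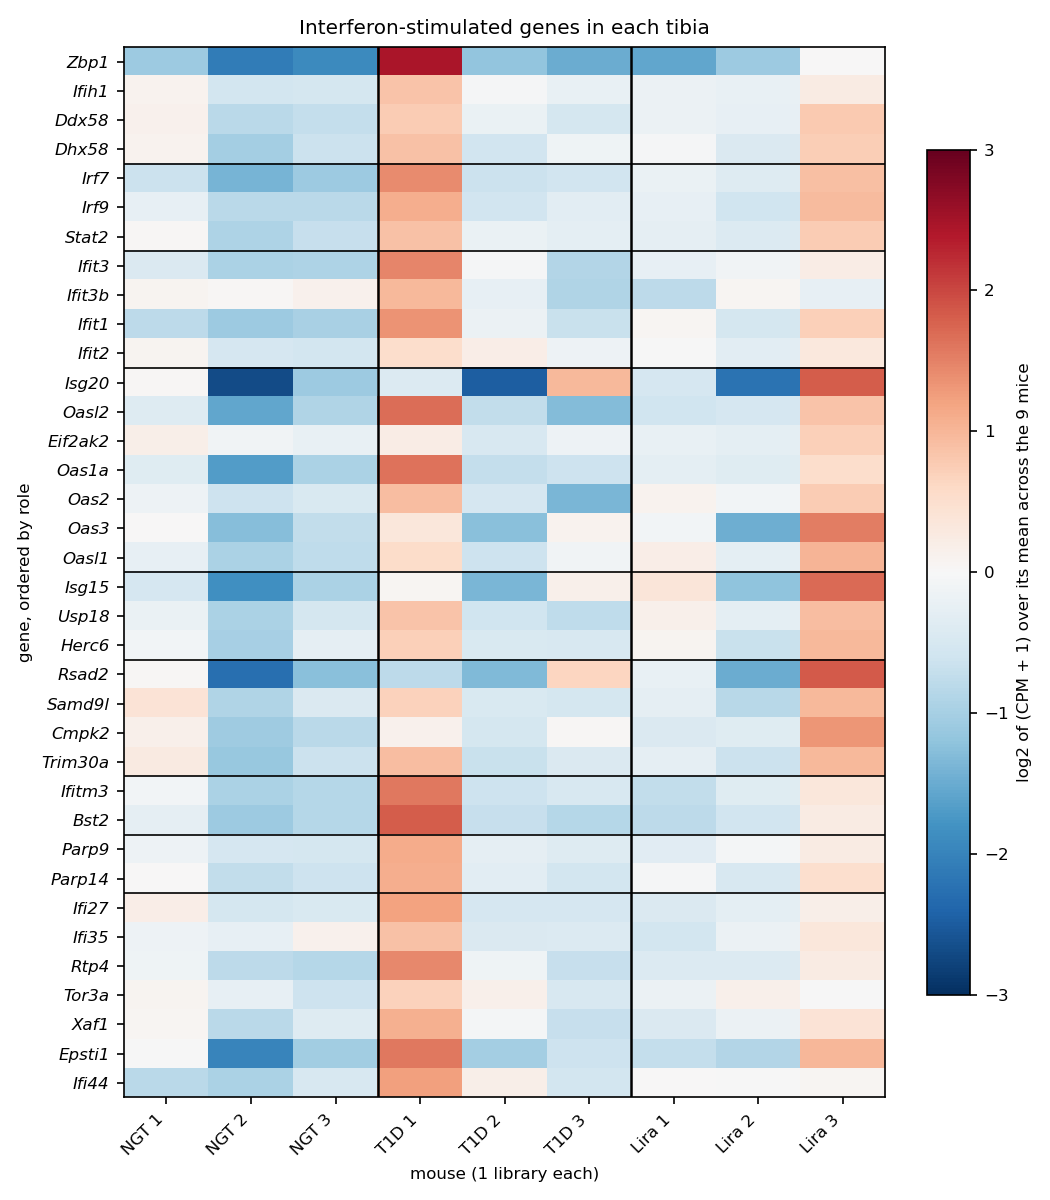
Level of each of the 36 tested members (rows, grouped by role with horizontal lines) in each of the 9 mice (columns), as log2 of CPM + 1 over the mean of the gene across the mice. Red cells concentrate in the columns of T1D 1 and Lira 3, which hold the highest value of 24 and 12 members, and blue cells in that of NGT 2.

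T1D 1 exceeded the mean of T1D 2 and T1D 3 by a median of 3.04 times over the members and by more than 2 times for 28 of 36, against 13.9% of all genes. Lira 3 exceeded the mean of Lira 1 and Lira 2 by a median of 2.14 times and by more than 2 times for 22 of 36, against 16.1% of all genes. These are descriptions of single mice and were not tested.

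The roles divided between these mice. All 3 transcription factors, all 4 IFIT genes, both PARP genes, both membrane factors and all 7 members of the remaining group (Ifi27, Ifi35, Ifi44, Xaf1, Rtp4, Epsti1 and Tor3a) peaked in T1D 1. All 3 genes of the ISG15 system and all 4 replication inhibitors analysed peaked in Lira 3. The OAS group was split, with Oas1a, Oas2 and Oasl2 highest in T1D 1 and Oas3, Oasl1, Eif2ak2 and Isg20 highest in Lira 3. Of the members with a listed promoter, the response element was found in 8 of the 16 that peaked in T1D 1 and in 6 of the 11 that peaked in Lira 3.

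Among the sensors, Zbp1, which recognises left-handed nucleic acid and triggers necroptosis, varied most. Zbp1 (gene 58203, as the table identifies it) was at 1.46, 0.232 and 0.396 CPM in NGT, 27.4, 1.31 and 0.867 in T1D, and 0.785, 1.48 and 4.25 in Lira. T1D 1 was 25.2 times the mean of the other T1D mice, whose values lay inside the NGT range, and the value of NGT 2 was at the floor of 3 counts. Ifih1 (gene 71586), the MDA5 sensor of long double-stranded RNA, was flatter, at 9.77, 5.80 and 5.86 CPM in NGT, 17.0, 8.64 and 7.47 in T1D, and 7.78, 7.48 and 10.8 in Lira. Ddx58 (gene 230073), the RIG-I sensor of RNA ends, was nearly equal in both high mice, at 18.2 CPM in T1D 1 and 18.6 CPM in Lira 3. Dhx58, a regulator of both sensors, reached 5.33 CPM in T1D 1 and 4.71 CPM in Lira 3 and lay between 0.696 and 2.73 CPM elsewhere.

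The transcription factors followed the same order. Irf7 (gene 54123), the factor that amplifies interferon production, was at 6.98, 3.71 and 4.83 CPM in NGT, 32.2, 6.94 and 7.34 in T1D, and 9.85, 8.49 and 22.2 in Lira. Every Lira mouse was above every NGT mouse for Irf7, while T1D 2 lay just below NGT 1. Irf9, the DNA-binding part of the STAT complex, was at 33.4 CPM in T1D 1 and 30.0 CPM in Lira 3 and between 8.20 and 12.7 CPM in the other 7 mice. Stat2, its STAT partner, was at 26.8 CPM in T1D 1, 24.5 CPM in Lira 3 and between 6.88 and 14.5 CPM elsewhere.

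The IFIT proteins bind viral RNA caps and block their translation. Ifit1 (gene 15957) was at 3.22, 2.40 and 2.69 CPM in NGT, 17.4, 5.43 and 3.59 in T1D, and 6.54, 4.03 and 10.9 in Lira, so that all 6 streptozotocin mice exceeded all 3 NGT mice. Ifit3 (gene 15959) was at 6.73, 4.40 and 4.51 CPM in NGT, 27.6, 9.15 and 4.63 in T1D, and 7.79, 8.77 and 11.2 in Lira. T1D 3 was within the NGT range for Ifit3 and the Lira mice were above it. Ifit3b (gene 667370), the neighbouring copy, had a different profile, at 6.44, 6.21 and 6.65 CPM in NGT, 12.7, 4.93 and 2.77 in T1D, and 3.06, 6.26 and 4.93 in Lira. Of the 50-base words in the longest Ifit3 transcript, 51.2% also occur in Ifit3b, and the estimated counts of both were not whole in any library, so how reads were divided between this pair is uncertain.

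The 2′-5′ oligoadenylate synthetases make the messenger that activates RNase L. Oas1a (gene 246730) was at 2.13, 0.249 and 1.07 CPM in NGT, 11.5, 1.46 and 1.60 in T1D, and 2.25, 2.12 and 4.74 in Lira, and 57.6% of the 50-base words of its transcript occur in other genes, chiefly Oas1g. Oasl2, an OAS-like gene, reached 42.8 CPM in T1D 1 and 23.8 CPM in Lira 3 and lay between 3.64 and 9.50 CPM elsewhere. Oas3 (gene 246727) was instead highest in Lira 3, at 7.43, 2.41 and 3.98 CPM in NGT, 9.49, 2.49 and 7.91 in T1D, and 6.79, 2.03 and 23.2 in Lira. Eif2ak2, the double-stranded RNA kinase PKR that halts translation, stayed between 8.33 and 14.1 CPM in 8 mice and was at 20.1 CPM in Lira 3.

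Isg20, Rsad2 and Isg15 did not peak in T1D 1 even within T1D. Isg20 (gene 57444), an exonuclease that degrades RNA, was at 14.8, 1.39 and 6.25 CPM in NGT, 10.6, 1.77 and 29.3 in T1D, and 9.78, 2.34 and 53.3 in Lira. Rsad2 (gene 58185), which encodes viperin and makes a chain-terminating nucleotide, was at 40.4, 7.42 and 16.1 CPM in NGT, 22.7, 15.3 and 63.0 in T1D, and 33.6, 13.5 and 145 in Lira. Isg15 (gene 100038882), the ubiquitin-like modifier, was at 3.62, 0.816 and 2.39 CPM in NGT, 5.78, 1.49 and 6.27 in T1D, and 7.31, 1.81 and 20.0 in Lira. In all 3 genes, mouse 2 was the lowest of its group and Lira 3 the highest of the 9 mice. Lira 3 over T1D 1 was 6.40 times for Rsad2, 5.03 times for Isg20 and 3.46 times for Isg15, whereas T1D 3 over T1D 1 was 2.78, 2.76 and 1.08 times.

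**Figure D2:**
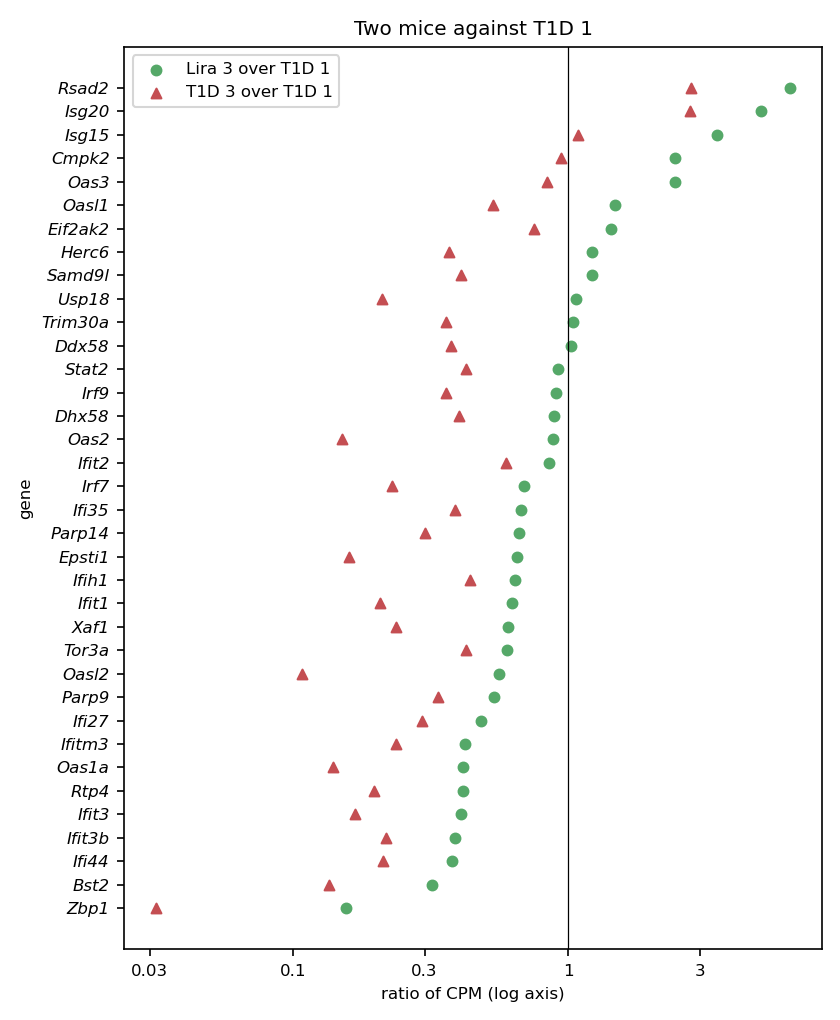
Ratio of the CPM in Lira 3 (green circles) and in T1D 3 (red triangles) to that in T1D 1 for each of the 36 members, on a log axis with a line at a ratio of 1. The circles run from 0.155 for Zbp1 to 6.40 for Rsad2 with 12 members above 1, and the triangles lie above 1 for Rsad2, Isg20 and Isg15 and below it for the others.

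Cmpk2, a mitochondrial nucleotide kinase encoded beside Rsad2, was at 9.73 CPM in T1D 1, 23.8 CPM in Lira 3 and between 3.71 and 9.90 CPM in the other mice. Usp18, which strips ISG15 from proteins and silences the interferon receptor, reached 5.71 CPM in T1D 1 and 6.08 CPM in Lira 3 and lay between 0.928 and 3.14 CPM elsewhere. For Samd9l and Trim30a, Lira 3 was at 1.21 and 1.04 times T1D 1.

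Both membrane factors were highest in T1D 1. Bst2 (gene 69550), the tetherin that holds budding virus at the cell surface, was at 8.88, 4.56 and 5.62 CPM in NGT, 41.0, 6.42 and 5.54 in T1D, and 5.92, 7.01 and 13.1 in Lira. Ifitm3 (gene 66141) was at 55.5, 30.2 and 32.4 CPM in NGT, 178, 38.1 and 41.9 in T1D, and 35.3, 45.6 and 75.0 in Lira. In both genes T1D 2 and T1D 3 lay within the NGT range. Parp9 (gene 80285), a member of the ADP-ribosyltransferase family that interferon induces, was at 12.9, 9.91 and 9.66 CPM in NGT, 32.5, 11.9 and 10.9 in T1D, and 11.3, 13.8 and 17.4 in Lira.

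In the remaining group, Ifi44 (gene 99899), a cytoplasmic interferon-induced protein, was at 1.40, 1.16 and 1.98 CPM in NGT, 8.81, 3.76 and 1.87 in T1D, and 3.22, 3.15 and 3.33 in Lira. The 3 Lira mice were close together for Ifi44 and above every NGT mouse, and Lira 3 did not stand out. Ifi27 (gene 52668) was at 25.5, 14.9 and 15.6 CPM in NGT, 52.2, 15.1 and 15.3 in T1D, and 16.0, 17.8 and 25.1 in Lira, so that 8 mice lay between 14.9 and 25.5 CPM beside a single high mouse. Epsti1, an interferon-induced stromal gene, was at 13.4 CPM in T1D 1, 8.73 CPM in Lira 3 and between 0.232 and 3.81 CPM elsewhere.

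**Figure D3:**
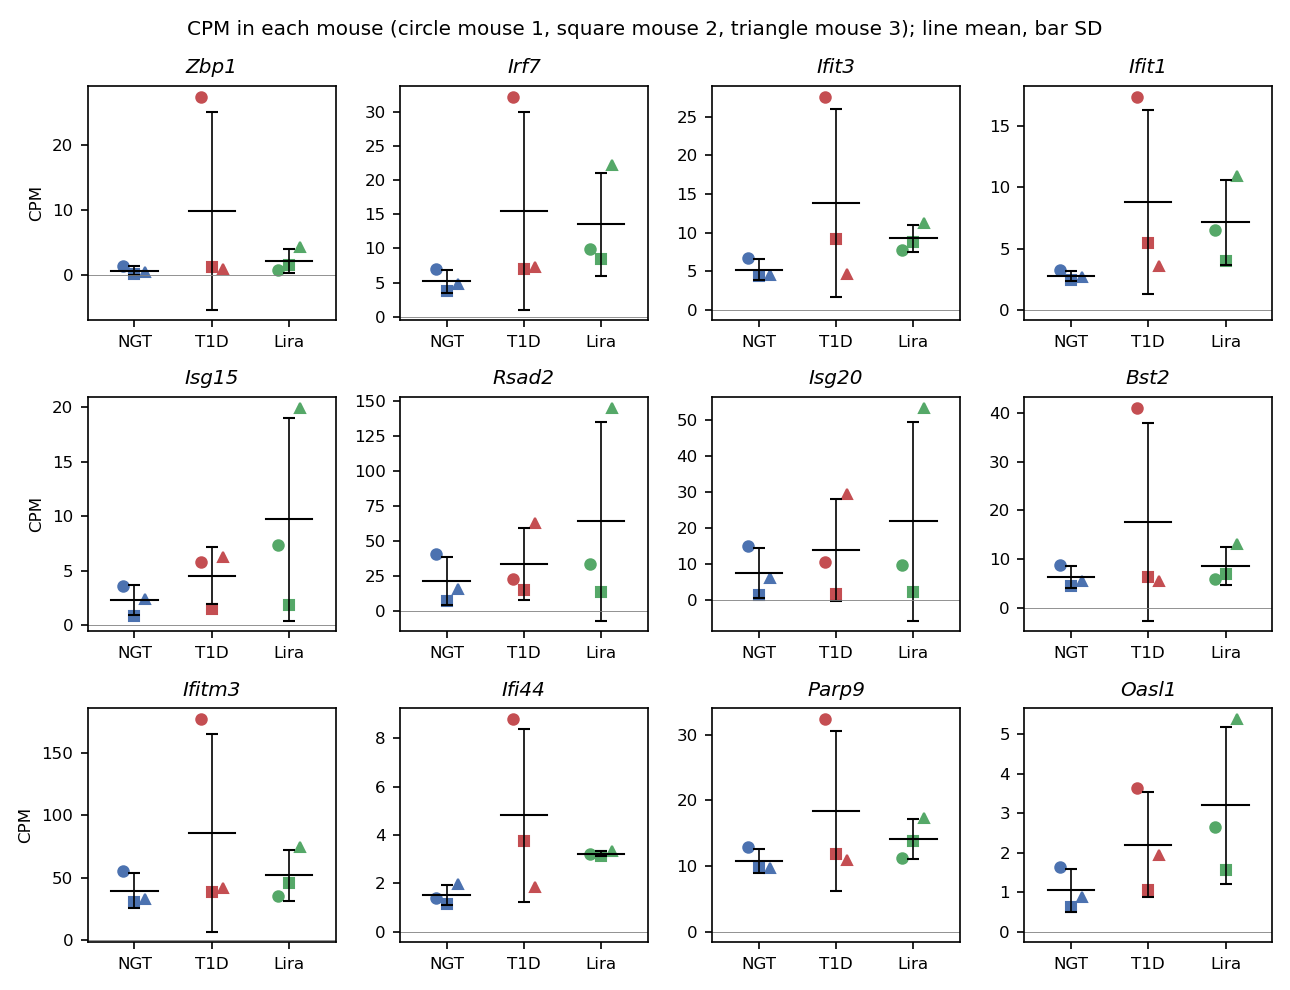
CPM in each mouse (circle mouse 1, square mouse 2, triangle mouse 3) for 12 members in NGT (blue), T1D (red) and Lira (green), with a line at the group mean and a bar of 1 SD over 3 mice. In the panels of Zbp1, Bst2 and Ifitm3 the T1D mean is carried by mouse 1 (27.4, 41.0 and 178 CPM), and in those of Isg15, Rsad2 and Isg20 the Lira mean by mouse 3 (20.0, 145 and 53.3 CPM).

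In the comparison of T1D with NGT, which asks what untreated diabetes changed, 35 of the 36 members had a fitted fold change above 0, with Eif2ak2 the exception at -0.08 (0.0053 with library-size scaling). The median log2 fold change was 0.76 for the members and 0.02 for all tested genes, of which 52.1% lay above 0. No member was called at an adjusted p under 0.05 with a fold change over 2 in edgeR's quasi-likelihood test, and 0% of all genes were. At an unadjusted p under 0.05, 5 members were higher and 0 lower, whereas 2.36% of all genes were higher and 1.60% lower. Every adjusted p of the members lay between 0.977 and 0.994 in edgeR's quasi-likelihood test.

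Of the 5, Ifi44 had the lowest p. Ifi44 averaged 4.81 ± 3.59 CPM in T1D and 1.51 ± 0.422 CPM in NGT (SD, n = 3), with a log2 fold change of 1.67 (SE 0.54) and an unadjusted p of 0.013 in edgeR's quasi-likelihood test. Ifit1 averaged 8.81 ± 7.52 CPM in T1D and 2.77 ± 0.418 CPM in NGT, with a log2 fold change of 1.67 (SE 0.61) and an unadjusted p of 0.024 in the same edgeR test. Zbp1 had the largest fitted change, 3.79 (SE 1.43) with an unadjusted p of 0.028 in the edgeR test, on a T1D mean of 9.86 ± 15.2 CPM in which the SD exceeds the mean. Irf7 and Ifit3 were the other members under 0.05, with log2 fold changes of 1.58 (SE 0.66) and 1.40 (SE 0.58) and unadjusted p-values of 0.041 and 0.039 in the edgeR test. Ifit1 was the only member whose groups did not overlap, as for 3.52% of all genes in this direction, and its two-sided exact permutation p was 0.1, the smallest that 3 against 3 mice allow.

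Both features were weaker without T1D 1. Without T1D 1, 22 of 36 members lay above 0 (48.6% of all genes), the median log2 fold change was 0.13 and 0 members were higher at an unadjusted p under 0.05 in edgeR's quasi-likelihood test, against 1.61% of all genes. The fitted value was 0.61 for Zbp1, 0.90 for Ifi44, 0.70 for Ifit1, 0.46 for Irf7 and 0.40 for Ifit3 without this mouse. Without T1D 3, 12 members were higher at that limit, against 3.46% of all genes. Leaving out NGT 2 or NGT 3 left 1 member at that limit, with 34 and 35 members above 0. In either direction, 1.61% and 1.81% of all genes were under it in those fits. None of these fits uses the mouse pairs described next.

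T1D and NGT mice with the same number deviated together across genes, but no label says what the number marks. The pairs were thus taken from these same data. Paired by number, the T1D mouse was above its NGT partner in all 3 pairs for 21 of 36 members, against 19.2% of all genes. No member was below in all 3 pairs. The T1D mouse was higher for 33 members in pair 1, 33 in pair 2 and 25 in pair 3, with median differences in log2(CPM + 1) of 1.01, 0.47 and 0.18 beside -0.03, 0.01 and 0.04 for all genes. With the mouse number as a block and only these 2 groups in the fit, 17 members were higher at an unadjusted p under 0.05 in the edgeR test, against 8.25% of all genes, and the lowest adjusted p of a member was 0.231. With the block in all 9 libraries the number stayed at 5. Ifi44, the member of lowest p without the block, had an unadjusted p of 0.054 in the edgeR test with the block in these 2 groups. The macrophage marker sum moved the same way, being 1013, 84.8 and 126 CPM in T1D 1 to 3 and 161, 32.4 and 54.4 CPM in NGT 1 to 3. The osteoclast sum did too, at 352, 91.9 and 266 CPM in T1D 1 to 3 and 132, 7.66 and 48.5 CPM in NGT 1 to 3. The sums of the T and NK cell and plasmacytoid dendritic cell markers were also higher in the T1D mouse of every pair. In pair 1, however, Gzma, Prf1, Klrb1c, Ncr1 and Cd3d of the first list were lower in T1D. Siglech, Ly6d and Ccr9 of the second list were lower there too, and that list includes the member Bst2. Neutrophil, B cell and erythroid sums were lower in T1D 1 than in NGT 1. The endothelial sum was lower in T1D in pairs 1 and 2, and the osteoblast and osteocyte sum in pair 3. The skeletal muscle sum was lower in the T1D mouse of every pair. It was 83831, 172303 and 217132 CPM in T1D 1 to 3 and 110640, 200109 and 229185 CPM in NGT 1 to 3. The part of any of these cells in the counts above was not tested.

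The comparison of Lira with T1D asks what liraglutide changed in diabetic mice, and it shares the T1D mice with the one above. Of the members, 13 had a fitted fold change above 0 and 23 below, with a median of -0.22 beside 0.04 for all genes, of which 55.3% lay above 0. No member was called (0% of all genes), and 0 members were under an unadjusted p of 0.05 in edgeR's quasi-likelihood test, against 1.55% of all genes higher and 1.78% lower. No member had groups that did not overlap, against 3.73% of all genes higher and 3.40% lower.

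By role, all 3 genes of the ISG15 system and all 4 replication inhibitors had fitted values above 0, and all 4 IFIT genes, all 3 transcription factors, both membrane factors, both PARP genes and all 7 of the remaining group had values below 0. The lowest p belonged to Zbp1, with 2.17 ± 1.83 CPM in Lira and 9.86 ± 15.2 CPM in T1D (SD, n = 3), a log2 fold change of -2.17 (SE 1.32) and an unadjusted p of 0.135 in the edgeR test. Bst2 averaged 8.67 ± 3.86 CPM in Lira and 17.7 ± 20.3 CPM in T1D, with a log2 fold change of -1.03 (SE 0.75) and an unadjusted p of 0.205 in the edgeR test. Isg15 went the other way, with 9.70 ± 9.32 CPM in Lira and 4.51 ± 2.63 CPM in T1D, a log2 fold change of 1.10 (SE 0.87) and an unadjusted p of 0.239 in the edgeR test. Without T1D 1 the values of Zbp1 and Bst2 turned to 1.00 and 0.54, and without Lira 3 that of Isg15 was 0.0043. For Zbp1, Bst2 and Isg15 the difference between the group means was smaller than the SD of the more variable group.

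The direction turned with the method and with the high mice. With limma-voom, which weights the libraries by quality, 24 of 36 members lay above 0 (51.1% of all genes) and the median was 0.16. With the replicate block in all 9 libraries 18 lay above 0 (56.1% of all genes) and the median was -0.00012. Without T1D 1, 35 of 36 members lay above 0 (58.7% of all genes), the median was 0.65, and 2 members were higher at an unadjusted p under 0.05 in the edgeR test, against 0.959% of all genes. Without Lira 3, 2 of 36 lay above 0 (46.5% of all genes) and the median was -0.59. Without both mice the median was 0.12 with 27 members above 0.

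In the comparison of Lira with NGT, which shares mice with both others, 34 of 36 members lay above 0 (55.5% of all genes) and the median log2 fold change was 0.82, beside 0.04 for all genes. No member was called (0% of all genes), and 2 were higher at an unadjusted p under 0.05 in edgeR's quasi-likelihood test, against 0.487% of all genes. Oasl1, an OAS-like gene that limits Irf7 translation, averaged 3.20 ± 1.98 CPM in Lira and 1.05 ± 0.538 CPM in NGT (SD, n = 3), with a log2 fold change of 1.60 (SE 0.65) and an unadjusted p of 0.037 in the edgeR test. Isg15 averaged 9.70 ± 9.32 CPM against 2.27 ± 1.40 CPM, with a log2 fold change of 2.08 (SE 0.90) and an unadjusted p of 0.048 in the edgeR test. Ifit1 came next, with 7.16 ± 3.48 CPM against 2.77 ± 0.418 CPM, a log2 fold change of 1.37 (SE 0.61) and an unadjusted p of 0.052 in the edgeR test. Without Lira 3 the values of Oasl1 and Isg15 were 0.99 and 0.98.

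Every Lira mouse exceeded every NGT mouse for 5 members, Ifit1, Ifit3, Irf7, Ifi44 and Oas2, against 2.51% of all genes, and Oas2 is named after its values were seen. The exact permutation p of each was 0.1, the smallest possible. Without Lira 3, 27 members lay above 0, the median was 0.17 and 0 were higher at an unadjusted p under 0.05 in the edgeR test, against 0.661% of all genes. Without T1D 1, 6 members were under that limit, against 0.741% of all genes, although this mouse belongs to neither group and enters only the shared scaling, filter and estimate of the spread.

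**Figure D4:**
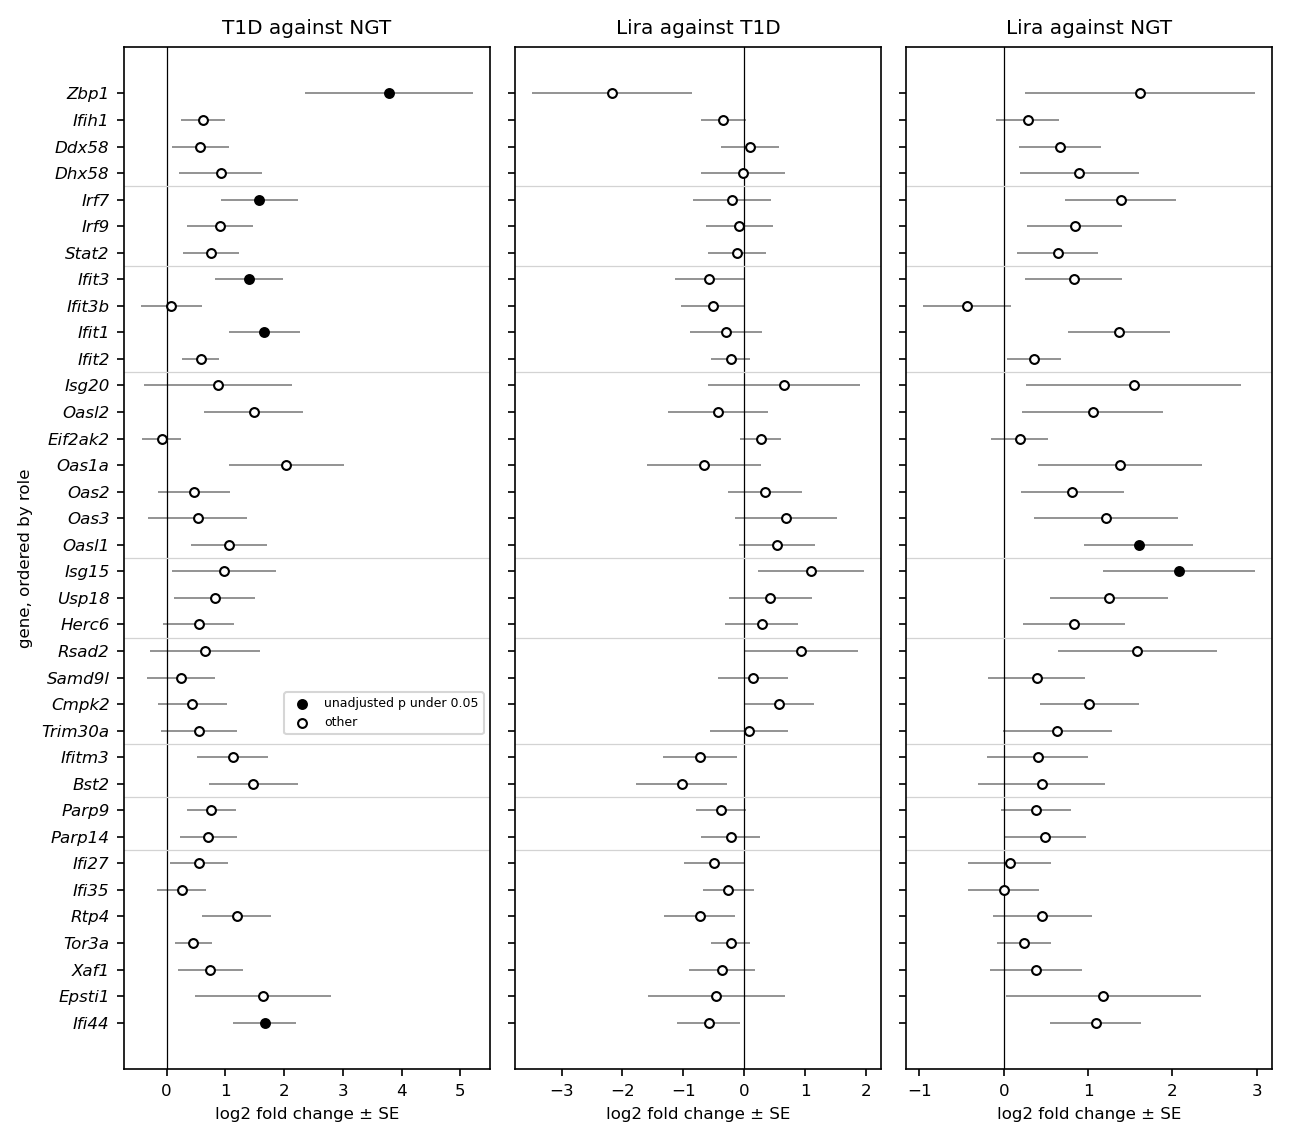
Fitted log2 fold change of each member with its standard error (bar) in the 3 comparisons, 3 mice per group, where filled points have an unadjusted p under 0.05 in edgeR's quasi-likelihood test. Points lie right of 0 for 35 members in T1D against NGT, 13 in Lira against T1D and 34 in Lira against NGT, and 5, 0 and 2 are filled.

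For the members highest per role by FPKM that were not given above, the edgeR test gave the following. Ifitm3 had log2 fold changes of 1.13 (SE 0.61, unadjusted p = 0.097, edgeR, and 0.041 with the mice paired in these 2 groups) in T1D against NGT and -0.73 (SE 0.60, unadjusted p = 0.259, edgeR) in Lira against T1D. Parp9 had 0.77 (SE 0.42, unadjusted p = 0.101, edgeR) and -0.38 (SE 0.41, unadjusted p = 0.383, edgeR), and without T1D 1 the first was 0.071 and the second 0.31. Ifi27 had 0.56 (SE 0.49, unadjusted p = 0.287, edgeR) and -0.49 (SE 0.49, unadjusted p = 0.347, edgeR). Without T1D 1 these values were 0.022 and 0.38 for Ifitm3 and turned to -0.30 and 0.37 for Ifi27. Rsad2 was above 0 in both, at 0.65 (SE 0.93, unadjusted p = 0.503, edgeR) and 0.93 (SE 0.93, unadjusted p = 0.344, edgeR). Isg20 was too, at 0.88 (SE 1.26, unadjusted p = 0.503, edgeR) and 0.66 (SE 1.25, unadjusted p = 0.612, edgeR). Without T1D 3 the T1D against NGT value was -0.17 for Rsad2 and -0.28 for Isg20, and without Lira 3 that of Lira against T1D was -0.52 and -1.20. Isg15 had a T1D against NGT value of 0.98 (SE 0.88, unadjusted p = 0.299, edgeR, and 0.027 with the mice paired in these 2 groups).

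The members' values stood beside those of other cell markers. Bst2 and Zbp1 were highest in T1D 1, as were the macrophage markers C1qa at 229 CPM (5.96 to 22.4 CPM in the others) and Adgre1 at 60.9 CPM (1.08 to 6.89 CPM in the others). Isg20 and Rsad2 were in the order Lira 3, T1D 3, NGT 1 from the top. The erythroid sums had that same order, and the neutrophil sums of NGT 1 (2220 CPM) and T1D 3 (1350 CPM) also came after that of Lira 3. Plasmacytoid dendritic cells are the classical source of type I interferon. Their 6 markers summed to between 74.0 and 172 CPM, highest in T1D 1, where Tcf4 gave 127 CPM and Bst2, itself a member, 41.0 CPM. The other 4 markers (Siglech, Ly6d, Klk1 and Ccr9) were highest in Lira 3, and the defining gene Siglech was at 0.310 to 5.74 CPM over the mice, with 1.14 CPM in T1D 1. Whether the number of such cells contributed to the members' levels was not tested.

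**Figure D5:**
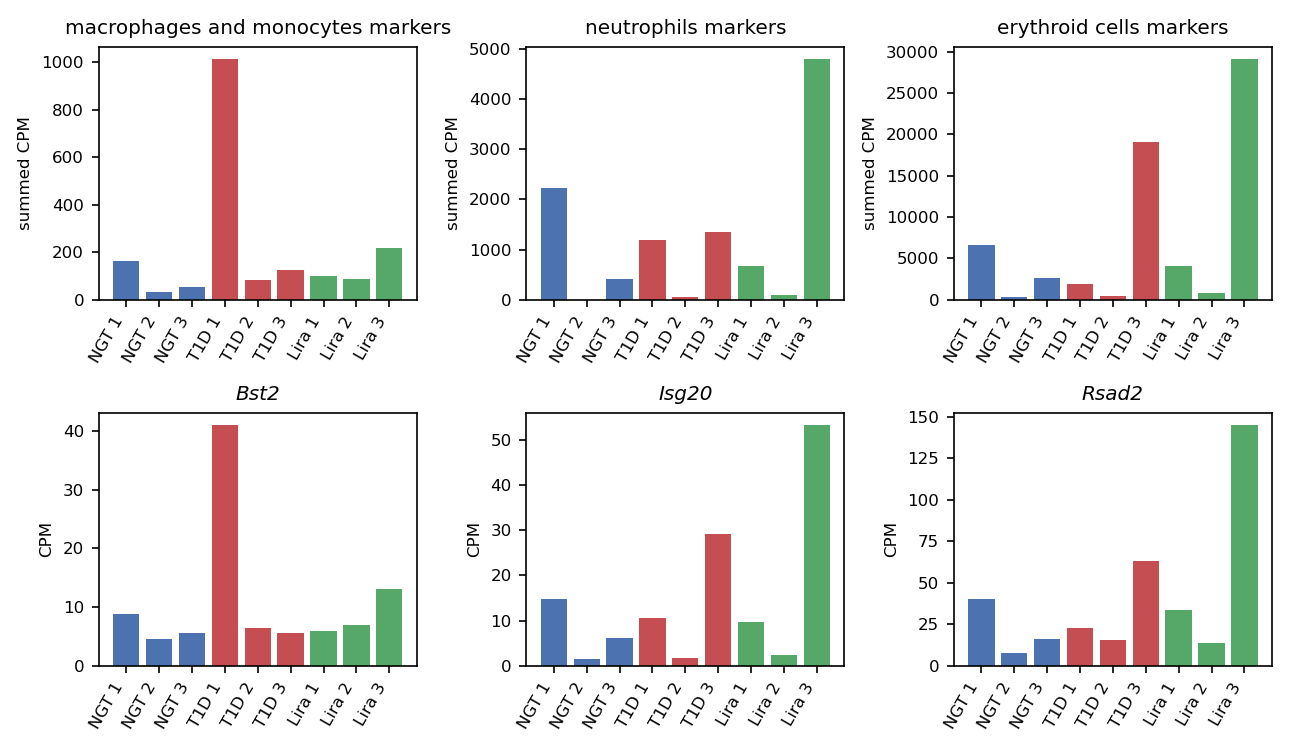
Summed CPM of macrophage and monocyte, neutrophil and erythroid markers (upper row) and CPM of Bst2, Isg20 and Rsad2 (lower row) in each of the 9 mice (bars, 1 library each, from 0). The bar of T1D 1 is highest for the macrophage markers (1013 CPM) and Bst2 (41.0 CPM), and that of Lira 3 for the neutrophil (4792 CPM) and erythroid (29102 CPM) markers, Isg20 and Rsad2.

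Other genes of the interferon pathway were read from a list of 46, of which 29 were matched and 27 tested. Among the ligands only Ifna16 and Ifnz were matched, and both were below the floor of 3 counts in every mouse, with at most 0.135 CPM. The other listed ligands, Ifnb1, Ifna1, Ifna2 and Ifna4 among them, were not matched, so their levels are not known here. The receptor chain Ifnar1 was even, at 31.8 to 45.6 CPM over the 9 mice, with a log2 fold change of 0.10 (SE 0.18, unadjusted p = 0.593, edgeR) in T1D against NGT. Ifnar2, the other chain, was at 44.3 CPM in T1D 1, 30.2 CPM in Lira 3 and 7.97 to 25.2 CPM elsewhere, with a log2 fold change of 0.79 (SE 0.65, unadjusted p = 0.257, edgeR). Each T1D mouse was above its NGT partner for Ifnar2, and with the mice paired in these 2 groups the value was 0.77 with an unadjusted p of 0.0021 and an adjusted p of 0.229 in the edgeR test, while without T1D 1 the unpaired value was 0.05. The kinases Jak1 and Tyk2 were at 138 to 205 CPM and 12.0 to 19.6 CPM, with log2 fold changes of -0.13 (SE 0.21, unadjusted p = 0.562, edgeR) and -0.01 (SE 0.26, unadjusted p = 0.978, edgeR), the second of which was 0.093 with library-size scaling.

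The feedback inhibitors Socs1 and Socs3, named after their values were seen, reached 7.61 and 22.5 CPM in T1D 1 and at most 1.84 and 6.16 CPM in the other mice.

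None of the 27 tested pathway genes was under an unadjusted p of 0.05 in any of the 3 comparisons in edgeR's quasi-likelihood test without pairing, and none was called. With the T1D and NGT mice paired in a fit of these 2 groups, 6 of them were higher at that limit, against 8.25% of all genes, and named after their values were seen these were Ifnar2, Socs3, Irf8, Irf5, Ptpn6 and Tlr7. Fitted values above 0 were found for 23, 11 and 23 of the 27 in T1D against NGT, Lira against T1D and Lira against NGT, with medians of 0.48, -0.03 and 0.29. Mavs, the mitochondrial adaptor of Ddx58 and Ifih1, was the pathway gene of lowest p between Lira and T1D, at 84.6, 117 and 66.4 CPM in Lira and 61.1, 65.2 and 64.3 CPM in T1D. Its log2 fold change was 0.49 (SE 0.26, unadjusted p = 0.093, edgeR) and its exact permutation p was 0.1, and without Lira 2 the value was 0.25. Its groups did not overlap, which held for 1 of the 27 pathway genes and for 3.73% of all genes in that direction. Trim25, the ligase that activates Ddx58, had a log2 fold change of 0.55 (SE 0.25, unadjusted p = 0.054, edgeR) in Lira against NGT.

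The non-members whose log2(CPM + 1) followed the mean of the members most closely over the 9 mice were Gmpr2 (Pearson r = 0.994), Cd300ld (0.984), Parp11 (0.982), Ms4a4b (0.981) and Shisa5 (0.981). Over the 7 mice without T1D 1 and Lira 3 the same coefficients were 0.976, 0.925, 0.895, 0.951 and 0.927. These are descriptions over libraries that share the scaling and the cell composition given above.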

How the data were processed

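RNA was extracted with TRIzol from snap-frozen tibiae that the authors had cleaned of muscle and connective tissue. The authors deposited expected counts per gene, of which 30.2% were not whole, and FPKM values per gene and library. The submitters' processing notes name the build mm9, whereas the aligner and the counting tool are not given in the sources used here. Groups and mouse numbers came from the sample titles, 1 tibia per mouse. Expected counts were rounded and tested with edgeR 4.0.16 in R 4.3.3, using TMM scaling, glmQLFit and glmQLFTest with 1 mean per group over all 9 libraries, and Benjamini-Hochberg adjustment over the 13960 of 18272 genes (76.4%) that reached 10 counts in 3 or more libraries. A call needed an adjusted p under 0.05 and a fold change over 2. The common biological coefficient of variation was 0.433. CPM was scaled to 1e+06 tested counts per library after TMM normalisation, and the floor of 3 counts covers counting error only. FPKM served only for levels between genes. Single genes were also tested with a two-sided exact permutation test on CPM. Standard errors are those of the fitted log2 fold change.

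The rule for the members uses names alone, but the members, role groups, pathway list and cell markers were chosen with earlier results of these data known. Fold change, error and p are given, in at least 1 comparison, for the member of highest mean FPKM in each role, the 3 members of lowest p in each comparison, 5 set pathway genes (1 of which is not reported here) and the pathway gene of lowest p. Alternatives were DESeq2 1.42.0, limma 3.58.1 (voom with sample weights, and trend on log2(CPM + 1)), library-size scaling, other filters, the 2 groups alone, a replicate block, and leaving out mice. In simulated counts the test script recovered most changes of the larger of 2 sizes, both well above a fold change of 2. That simulation held no outlying mouse and no shift in cell composition, and smaller changes were not tried. Correlations of same-numbered deviations from the group means were 0.583, 0.647 and 0.283 between T1D and NGT, all over 0.1, so these numbers were taken as pairs. They were -0.244, 0.615 and 0.271 between Lira and T1D and -0.173, 0.727 and 0.0125 between Lira and NGT, which were not. No label states what the number marks, so the pairing rests on the same data that were then tested with it. Promoters came from RefSeq on GRCm38.p6, which is not the build of the counts, and shared words of 50 bases from GENCODE transcripts.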

Additional observations from a re-analysis of the deposited data

How the results depend on the processing

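No member was called under any alternative that gave adjusted p-values. DESeq2 gave none to any member in T1D against NGT, where its independent filtering left 1235 genes, nor to Zbp1 and Bst2 in the other comparisons, so it offers no check there. In what follows each count of genes at an unadjusted p under 0.05 stands beside the share of all genes tested in brackets. For T1D against NGT, members numbered 5 (3.95%) in edgeR's quasi-likelihood test, and 1 with limma-voom (8.45%), 1 with limma-trend (3.65%), 3 with library-size scaling (3.40%), 3 with the 2 groups alone (4.02%), 17 with the replicate block in those 2 groups (14.2%), and 0 without T1D 1 and Lira 3 (3.84%), with 0 to 12 when single mice were left out (1.61% to 7.32%). The median of the members was 0.47 with limma-voom and 0.13 (without T1D 1) to 1.15 (without NGT 1) without single mice. Pathway genes numbered 0, and 2 with DESeq2 (4.99%), 1 with limma-voom, 1 with the block (5.39%), 6 with the block in 2 groups, and 0 to 3 without single mice. For Lira against T1D, members numbered 0 (3.33%), and 1 with limma-voom (5.84%), 1 without both mice (3.66%) and 0 to 2 without single mice (1.83% to 5.35%), and pathway genes 0, and 3, 1 and 0 to 1. The median of the members ran from -0.59 to 0.65 without single mice, and was -0.00012 with the block and -0.06 with the block in 2 groups. For Lira against NGT, members numbered 2 (0.781%), and 4 with DESeq2 (1.10%), 6 with limma-voom (5.84%), 1 with limma-trend (0.781%), 0 with library-size scaling (0.723%), 5 with the 2 groups alone (0.870%), 5 with the replicate block (1.15%, and 0.714% in 2 groups), and 0 to 6 without single mice (0.423% to 3.20%). Pathway genes numbered 0, and 4 with limma-voom, 2 with the block and 0 to 2 without single mice. The median was 0.14 without both mice and 0.17 to 1.07 without single mice. With the block, members above 0 numbered 34 in T1D against NGT, 18 in Lira against T1D and 35 in Lira against NGT, and 34, 16 and 34 with the block in 2 groups. The cause of these differences was not tested.

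The fitted log2 fold change changed sign with mice left out, singly or T1D 1 and Lira 3 together, over these ranges. In T1D against NGT they were -0.28 to 1.86 for Isg20, -0.17 to 1.51 for Rsad2, -0.0074 to 1.48 for Ifitm3, -0.33 to 0.86 for Ifi27, -0.034 to 0.25 for Ifnar1 and -0.28 to 0.13 for Tyk2. In Lira against T1D they were -3.13 to 1.00 for Zbp1, -1.35 to 1.81 for Isg20, -0.73 to 1.76 for Rsad2, -1.09 to 0.38 for Ifitm3, -0.65 to 0.31 for Parp9, -0.79 to 0.37 for Ifi27 and -1.46 to 0.54 for Bst2. Without T1D 1 the Lira against T1D value was above 0 for Zbp1, Ifitm3, Parp9, Ifi27 and Bst2, and without Lira 3 it was below 0 for Isg20 and Rsad2. With limma-voom it was 0.0066 for Ifi27, and with library-size scaling the T1D against NGT value was 0.093 for Tyk2 and 0.0053 for Eif2ak2, which without T1D 2 was 0.080.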
